A study of Mus musculus with 96 samples.

Results

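The miR-29 family is a set of microRNAs (miRNAs) described as restraining scar formation, and its members were followed here in 4 cell fractions of the mouse heart after myocardial infarction. The members were the 7 mature miRNAs whose names carry miR-29a, miR-29b or miR-29c, taken by name and not by any measured value, of 1978 mature miRNAs listed and 1561 with at least 1 count. Acute myocardial infarction (AMI) had been induced in male C57Bl/6J mice of 12 to 14 weeks by permanent ligation of the left anterior descending coronary artery. Hearts were taken on day 1 (D1), D3, D7, D14 and D28 after AMI, and hearts of control mice without AMI gave D0. Each heart was digested with collagenase and split into cardiomyocytes (CMs, by centrifugation), endothelial cells (ECs, by anti-CD144 beads), hematopoietic cells (HCs, by anti-CD45 beads) and fibroblasts (FBs, by adhesion to plastic). Small RNA sequencing gave 96 libraries, 4 for each of 24 groups of cell type and day, each from a pool of 3 mice, or of 2 where a sample was missing.

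A miRNA gene is transcribed as a hairpin, from which Dicer releases a duplex, and the strand loaded into Argonaute (often 1 arm far more than the other) guides repression of mRNAs that pair with its seed, bases 2 to 8. The 3p arms of miR-29 are known for repressing messages of collagens, elastin, fibrillin and other extracellular matrix proteins in fibroblasts, and miR-29 has been described as falling in the fibrotic heart, with transforming growth factor beta as an upstream repressor. In cardiomyocytes the family has also been described as promoting hypertrophy, so its level in each cell type is of interest on its own.

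The mature sequences are shown because the members are told apart by very few bases. RefSeq sequences (GRCm38.p6) matched all 7 names, and the 3 abundant 3p strands are printed first, with the seed in capitals.
mmu-miR-29a-3p: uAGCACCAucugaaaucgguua
mmu-miR-29b-3p: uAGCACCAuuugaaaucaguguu
mmu-miR-29c-3p: uAGCACCAuuugaaaucgguua
The 5p strands follow, again with bases 2 to 8 in capitals.
mmu-miR-29a-5p: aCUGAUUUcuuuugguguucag
mmu-miR-29b-1-5p: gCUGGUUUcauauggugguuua
mmu-miR-29b-2-5p: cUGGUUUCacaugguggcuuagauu
mmu-miR-29c-5p: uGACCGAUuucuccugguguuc

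The 3 3p strands share the seed AGCACCA, and no other mature miRNA of the reference table has it. Counted from 1 at the 5′ end, miR-29a-3p and miR-29c-3p differ at a single base, C10U. From miR-29a-3p to miR-29b-3p the changes are C10U, G18A, U21G and A22U, and from miR-29b-3p to miR-29c-3p they are A18G, G21U and U22A. Bases 9 to 11 therefore read UCU in miR-29a-3p and UUU in both others. Only miR-29b-3p among the members ends in AGUGUU, an ending held by 2 of 1679 mature miRNAs of the table (0.119%). How reads with a mismatch or an untemplated base at these positions were assigned was not tested, so a part of the miR-29a-3p and miR-29c-3p counts may be shared. The 4 5p strands have 4 different seeds, and of these only that of miR-29b-2-5p is shared with another miRNA, miR-6338, which had 0 counts.

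The members come from 4 hairpins in 2 clusters (GRCm38). Mir29a (chr6:31062660-31062747) and Mir29b-1 (chr6:31063023-31063093) lie on the minus strand, 275 bases apart, and the edge of Mir29b-1 overlaps an exon of the lincRNA Gm27019 on the same strand. Mir29b-2 (chr1:195037040-195037120) and Mir29c (chr1:195037547-195037634) lie on the plus strand, 426 bases apart, within an exon of the processed transcript A330023F24Rik and opposite an exon of Cd46. Both b hairpins give the same miR-29b-3p, so this strand cannot be traced to a cluster, whereas the 5p strands can. The hairpin counts did not separate the b copies either, since the ratio of Mir29b-2 to Mir29b-1 counts lay between 0.895 and 1.02 in the 71 libraries with at least 100 counts of Mir29b-1.

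Across the 96 libraries miR-29a-3p had 7576393 counts, miR-29c-3p 5581382 and miR-29b-3p 357326. The 5p strands were rare, with 13129 counts for miR-29c-5p, 9797 for miR-29b-2-5p, 4683 for miR-29a-5p and 856 for miR-29b-1-5p, together 0.21% of the family's counts. Libraries held between 18286 and 65588543 counts of mature miRNAs, and 1 HC library at D0 (replicate 3, the lowest total) stood apart. The cardiomyocyte, endothelial, fibroblast and leukocyte marker lists were each highest in their own fraction, without overlap with the others. Levels are summed CPM (mature counts scaled to one common library total). They were 311420 to 709040 for the 5 cardiomyocyte miRNAs in CMs and 103770 to 234300 for the 2 endothelial miRNAs in ECs. They were 40646 to 88869 for the 3 fibroblast miRNAs in FBs and 6921 to 25848 for the 5 leukocyte miRNAs in HCs. The fractions were not free of other markers. The cardiomyocyte miRNAs reached 20924 to 162110 CPM in ECs and 25976 to 132340 CPM in HCs, there above the leukocyte miRNAs. The mural cell and erythroid miRNAs had no fraction of their own. Libraries of one cell type were prepared together with their own RNA input and number of PCR cycles, so cell type and preparation cannot be told apart. In cell fractions of this kind fewer cells of a type and less RNA per cell cannot be told apart either.

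By CPM, scaled by library size alone, CMs of unoperated hearts held the least miR-29a-3p, miR-29b-3p and miR-29c-3p, and at D7 and D14 they held the most. By group mean this did not hold for miR-29c-5p at D0 or for miR-29b-1-5p at D7 and D14. The levels are CPM of the mature counts. At D0 miR-29a-3p in the 4 CM libraries was 850, 296, 227 and 297 CPM, against 7279, 3103, 10991 and 10285 CPM in FBs. At D14 it was 18170, 16473, 21908 and 15919 CPM in CMs and 2131, 2983, 3113 and 4076 CPM in FBs. The order of the cell types was thus turned between these days, with no overlap of CM and FB libraries at either.

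The b member followed the same course from a lower base. At D0 miR-29b-3p was 21.3, 11.1, 19.2 and 26.0 CPM in CMs and 238, 34.3, 397 and 286 CPM in FBs. At D7 the CM libraries had 402, 1167, 1963 and 4486 CPM and the FB libraries 76.4, 83.0, 137 and 89.5 CPM. The 4 CM libraries of D7 were widely spread but all lay above every library of the other fractions at that day, of which the highest had 281 CPM. At D14 the CM libraries had 2238, 3188, 1890 and 1330 CPM and the FB libraries 26.4, 51.1, 46.9 and 79.3 CPM.

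For miR-29c-3p, the partner of Mir29b-2, the CM libraries had 567, 212, 161 and 202 CPM at D0 and 13704, 12655, 15547 and 11817 CPM at D14. The FB libraries went the other way, with 5130, 2289, 8792 and 8087 CPM at D0 and 1613, 2374, 2356 and 3139 CPM at D14. For each of the 3 3p strands all 4 CM libraries lay below every library of the other fractions at D0, and all 4 lay above them at D7 and at D14. At D28 3, 2 and 3 CM libraries still did so for miR-29a-3p, miR-29b-3p and miR-29c-3p. These levels are scaled by library size alone. On that scale 495 of 712 miRNAs were called lower in CMs than in FBs, averaged over the 6 days (edgeR, described below). In CMs 388 of 484 were called higher at D7 than at D0. The share of all miRNAs with such a separation of libraries was not counted.

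Ranked by group mean, the top 2 of the 24 groups were CMs at D14 and at D7 for each 3p strand, with 18117 ± 2702 and 15973 ± 3969 CPM for miR-29a-3p, 2162 ± 780 and 2005 ± 1773 CPM for miR-29b-3p and 13431 ± 1608 and 11604 ± 3447 CPM for miR-29c-3p (SD, n = 4). Below them the order was fine-grained, and all 23 pairs of neighbouring groups overlapped in their libraries for each strand. ECs had group means of miR-29a-3p between 3637 and 4656 CPM up to D14 and of 1418 ± 1064 CPM at D28 (SD, n = 4).

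**Figure D1:**
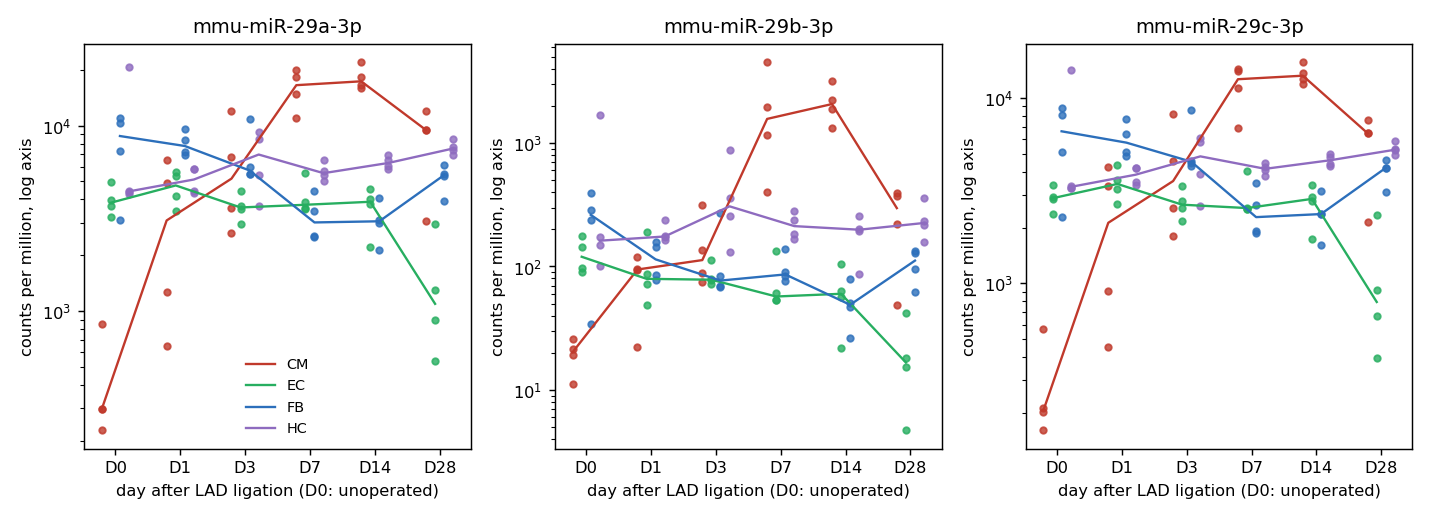
Level of the 3 miR-29 3p strands by day after AMI (x axis, days evenly spaced) in CPM (y axis, log scale) for CMs, ECs, FBs and HCs, where points are libraries (4 per group) and lines join the group medians. CMs start below all other fractions at D0 and lie above all of them at D7 and D14, while FBs decline to D14.

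The first question was how each member changed against D0 within a cell type. Changes were estimated with edgeR's quasi-likelihood test on the counts after trimmed mean of M values (TMM) scaling, and adjusted p (Benjamini-Hochberg over all miRNAs tested in that cell type) under 0.05 counted as a call. The filter on low counts left 484 miRNAs to test for CMs, 421 for ECs, 563 for FBs and 608 for HCs. All 7 members passed the filter in FBs and HCs, and miR-29b-1-5p did not in CMs and ECs.

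In CMs the 3p strands rose on most days. For miR-29a-3p the log2 fold change against D0 was 1.5 ± 0.42 at D1 and 1.91 ± 0.43 at D3 (SE, 4 against 4 libraries). It reached 2.94 ± 0.45 at D7 (edgeR adjusted p = 8.2e-06) and 2.85 ± 0.44 at D14 (edgeR adjusted p = 1.1e-05), and was still 2.51 ± 0.44 at D28. The c strand ran alongside, with 1.49, 1.91, 3.01, 2.97 and 2.47 at D1, D3, D7, D14 and D28, all called. The b strand departed from this course. Its log2 fold change was 0.84 at D1 and 1.00 at D3, neither called, then 4.34 ± 0.60 at D7 (edgeR adjusted p = 2.3e-06) and 4.22 ± 0.59 at D14, and 1.86 ± 0.54 at D28.

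Of the 5p strands in CMs, miR-29b-2-5p rose on all 5 days by 1.31 to 1.73 on the log2 scale, and miR-29a-5p rose at D3, D7 and D28 by 1.05 to 1.23. Each of the miR-29a-5p calls was lost without replicate 4 of D0. The 5p strand of the c hairpin, miR-29c-5p, had log2 fold changes between -0.01 and 0.38 and was called on no day by edgeR, with 0 days at an unadjusted p under 0.05. On D1, D3, D7, D14 and D28 the members called higher than D0 numbered 3, 4, 5, 4 and 5 of 6, and none was lower. The share of all tested miRNAs called higher in CMs was 13.6%, 31.8%, 38.8%, 38% and 29.5% on the same days. Over all 6 days together 4 of 6 members changed, where the share of all miRNAs was 73.8%.

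These CM values lean on the scaling. In CMs miR-1a-3p, an abundant miRNA of heart muscle, took 60.2 to 70.7% of mature counts at D0 and 29.2 to 39.9% at D14. TMM factors in CMs ran from 0.289 to 0.357 at D0 and from 1.91 to 2.04 at D14. With library size alone the log2 fold change of miR-29a-3p became 5.26 at D7 and 5.44 at D14, that of miR-29b-3p 6.69 and 6.80, and the median over all tested miRNAs moved from 0.35 and 0.41 to 2.67 and 2.99. Under TMM 87.2%, 96.1% and 88.0% of tested miRNAs had a lower log2 fold change at D7 than miR-29a-3p, miR-29b-3p and miR-29c-3p. The direction of the 3p strands held under every scaling, whereas miR-29c-5p was called higher on all 5 days with library size alone (2.40 at D7 and 2.60 at D14). The scaling also set the split of all calls in CMs, of which 54.4 to 57.7% were higher on the 5 days under TMM and 91.8 to 96.3% with library size alone.

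At D1 the CM libraries themselves fell apart, and the count over all miRNAs at that day went from 121 to 46 without replicate 3 and to 192 without replicate 1 of D0. Replicates 1 and 2 had 644 and 1259 CPM of miR-29a-3p, and replicates 3 and 4 had 6514 and 4900 CPM. The calls of miR-29a-3p and miR-29c-3p at D1 were lost without replicate 3, where the log2 fold changes were 1.08 and 1.10 with edgeR adjusted p of 0.077 and 0.070. The D1 call of miR-29b-2-5p was also lost without replicate 3 or replicate 4 of that day and without replicate 3 or replicate 4 of D0, and from D7 on no omission of a library ended a 3p call in CMs.

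Markers of other cells moved with the CM rise, given first as summed CPM without TMM. All 3 fibroblast miRNAs were detected in CMs, with miR-214-3p at 0 in some libraries, and their summed level rose from 36.5 to 114 CPM at D0 to 1358 to 2188 CPM at D14, against 40646 to 88869 CPM in FBs themselves. The 5 leukocyte miRNAs went from 51.3 to 154 CPM to 332 to 404 CPM, with miR-223-3p at 0 in some CM libraries, and the 2 endothelial miRNAs from 4423 to 9789 CPM to 19277 to 27651 CPM. The summed level of the 5 cardiomyocyte miRNAs went from a range of 603380 to 709040 CPM to one of 311420 to 419580 CPM. Under TMM, the scale of the fold changes, the lists were mixed at D14. Of the cardiomyocyte miRNAs only miR-1a-3p was lower (-3.51) and the other 4 were higher (median of the 5, 1.54). All 3 fibroblast miRNAs were higher (median 2.92), as were 3 of 5 leukocyte miRNAs with miR-155-5p lower (median 1.73). Of the endothelial miRNAs miR-126a-5p was higher (1.43) and miR-126a-3p lower (-0.87), and of the 2 mural cell miRNAs miR-143-3p was lower. Of 3 erythroid miRNAs 2 were higher and 1 was lower. The part of these shifts in the CM values was not tested.

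FBs showed the opposite course. The log2 fold change of miR-29a-3p was -0.16 at D1 and -0.53 at D3, neither called, then -1.53 ± 0.29 at D7 (edgeR adjusted p = 1.4e-04) and -1.39 ± 0.29 at D14 (edgeR adjusted p = 9.4e-04). For miR-29c-3p the values were -1.54 ± 0.30 at D7 and -1.39 ± 0.30 at D14, both called. For miR-29b-3p they were -1.33 ± 0.48 at D3, -1.55 ± 0.48 at D7 and -2.27 ± 0.50 at D14, all called. By D28 none of the 3 was called, with -0.47, -1.06 and -0.46 for the a, b and c strands.

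The FB levels by library show the same course. At D7 miR-29a-3p was 2519, 3469, 4428 and 2541 CPM, and at D28 5498, 5328, 6128 and 3929 CPM. The D0 libraries spread from 3103 to 10991 CPM, with replicate 2 the lowest in each of the 3 strands, so the groups overlapped at D7 and D14 through this library. Without replicate 2 of D0 the log2 fold changes were -1.66, -1.78 and -1.67 at D7 and -1.56, -2.52 and -1.56 at D14 for the a, b and c strands. Without replicate 3 of D0, which was the highest, the D7 call of miR-29b-3p was lost at -1.15 with an edgeR adjusted p of 0.066, and so were those of miR-29a-5p and miR-29c-5p.

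All called FB changes pointed down. The D3 calls were the least stable, and that of miR-29b-3p was lost with library size alone (-0.96) and without replicate 3 or 4 of D0 or replicate 2, 3 or 4 of D3. The 5p strands miR-29a-5p (-1.37), miR-29b-2-5p (-1.43) and miR-29c-5p (-0.80) fell at D7, miR-29a-5p at D14 (-1.10) and miR-29c-5p at D3 (-0.68). The call of miR-29a-5p at D14 was lost with library size alone and without replicate 3 or 4 of D0 or replicate 1, 2 or 3 of D14, and those of miR-29c-5p were lost with library size alone at both days and without replicate 3 or 4 of D0. On D1, D3, D7, D14 and D28 the members called lower than D0 by edgeR numbered 0, 2, 6, 4 and 0 of 7, while 1, 2, 6, 6 and 1 had an unadjusted p below 0.05. The share of all tested miRNAs called lower in FBs was 2.13%, 20.1%, 21.1%, 10.3% and 1.95%. Over all 6 days all 7 members changed, against 68.2% of all miRNAs. The median over all tested miRNAs in FBs lay between -0.071 and 0.057 on every day. At D7, 1.42%, 1.07% and 1.24% of tested miRNAs had a lower log2 fold change than miR-29a-3p, miR-29b-3p and miR-29c-3p, and at D14 2.49%, 0.178% and 2.66% did.

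Marker lists moved in FBs as well. At D7 the called changes under TMM were lower values of miR-1a-3p among 4 cardiomyocyte miRNAs tested (median -0.67), miR-199a-3p among 3 fibroblast miRNAs (median 0.11), miR-145a-5p among 2 mural cell miRNAs (median -0.29), miR-144-3p among 3 erythroid miRNAs (median -1.24) and miR-142a-5p and miR-150-5p among 5 leukocyte miRNAs (median -0.91), of which miR-155-5p was higher. The 2 endothelial miRNAs had a median of -0.44 and were not called. At D14 the called changes were miR-144-3p, miR-142a-5p and miR-142a-3p lower and miR-155-5p and miR-199a-5p higher. The summed level of the 5 cardiomyocyte miRNAs was 2058 to 4863 CPM at D0 and 1128 to 2365 CPM at D7, and that of the 3 fibroblast miRNAs 40646 to 63149 CPM and 50691 to 59027 CPM. The part of these shifts in the FB values was not tested.

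**Figure D2:**
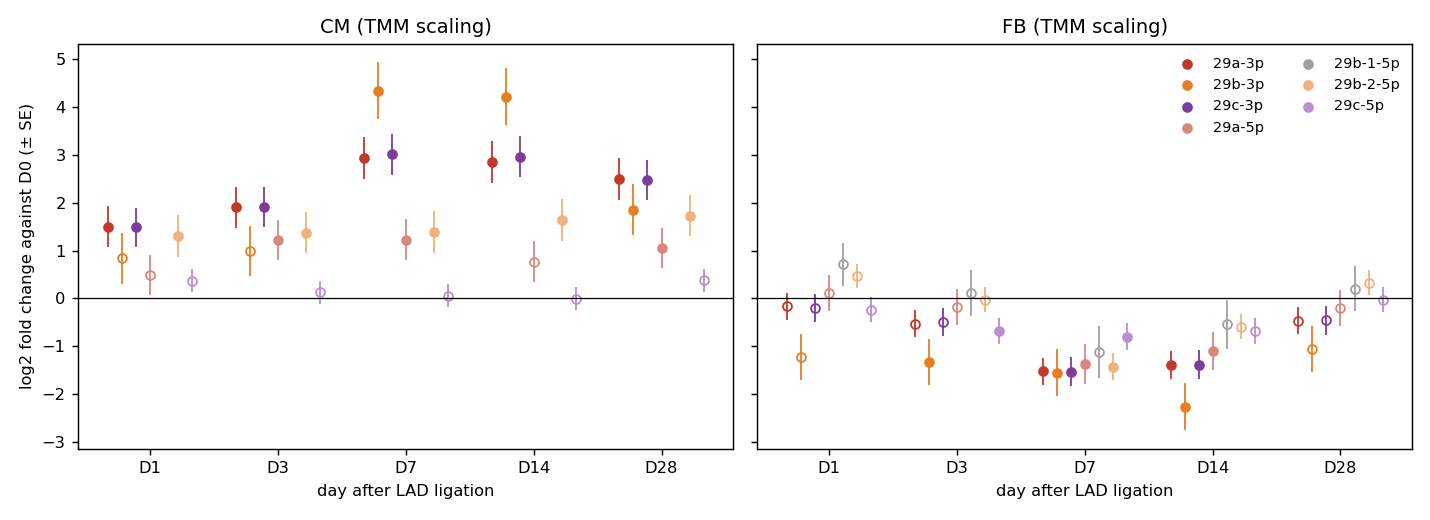
Log2 fold change against D0 (y axis) of each miR-29 member by day after AMI (x axis, days evenly spaced) in CMs and FBs, with error bars for the SE and filled points for an edgeR adjusted p under 0.05. The CM values of the 3p strands lie above 0 on every day and reach 4.34 for miR-29b-3p at D7, and the FB values of the same strands lie below 0 and reach -2.27 for miR-29b-3p at D14.

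The difference between the CM and the FB course was tested itself, as the change in CMs minus the change in FBs in a fit of all 96 libraries with 712 miRNAs. It was called above 0 by edgeR for all 3 3p strands on all 5 days. For miR-29a-3p it was 1.88, 2.75, 4.71, 4.50 and 3.21 on the log2 scale at D1, D3, D7, D14 and D28, and for miR-29c-3p 1.89, 2.71, 4.79, 4.61 and 3.17. For miR-29b-3p it was 2.18, 2.63, 6.10, 6.72 and 3.16, with an edgeR adjusted p of 6.0e-10 at D7 and 2.9e-11 at D14. Among all members 3, 6, 7, 6 and 5 of 7 were called on the 5 days, 27 of 35 in all, and DESeq2 called 20 of the 35. The calls that DESeq2 did not make were miR-29b-3p at D1, miR-29a-5p at D3 and D28, miR-29b-1-5p at D7 and miR-29c-5p at D3, D7 and D14. The pools of the cell types at one day came from the same mice, which the fit did not model. Over all miRNAs 5.9%, 20.4%, 27.7%, 26.5% and 19.1% were called in that direction at D1, D3, D7, D14 and D28.

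In ECs the called 3p changes came at D28. There the log2 fold change was -1.47 ± 0.33 for miR-29a-3p (edgeR adjusted p = 7.6e-04), -2.64 ± 0.49 for miR-29b-3p (edgeR adjusted p = 1.1e-04) and -1.42 ± 0.34 for miR-29c-3p, and miR-29c-5p fell by 1.3. The EC libraries of D28 had 2945, 892, 539 and 1296 CPM of miR-29a-3p, and those of D0 4976, 3972, 3705 and 3208 CPM, without overlap. How many of all miRNAs were separated in this way was not counted. Before D28 edgeR called only miR-29c-5p in the fit of all days, at D7 (-1.0). The 5 lower member-days of ECs became 8 with DESeq2 and 9 with the compared days alone. Both of these alternatives also called miR-29b-3p and miR-29a-5p at D14, and the second called miR-29b-3p at D3 and D7 and miR-29a-5p at D7. Of 6 members 0, 0, 1, 0 and 4 were lower at D1, D3, D7, D14 and D28, with 0, 0, 3, 2 and 5 at an unadjusted p under 0.05, where 0%, 2.14%, 4.75%, 3.09% and 20.2% of all miRNAs were called lower. Over all days 5 of 6 changed, against 58.2%.

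The D28 EC libraries were among the shallowest, with 525651 to 3902765 counts, and their endothelial marker level of 103770 to 224230 CPM reached below the 174750 to 215250 CPM of D0. In 1 of them the 2 mural cell miRNAs reached 102090 CPM. Under TMM all 4 cardiomyocyte miRNAs tested were lower at D28 (median -2.01), 2 of 3 fibroblast miRNAs were higher (median 1.21), and miR-126a-5p, miR-145a-5p and miR-155-5p were lower and miR-486a-5p higher in the endothelial, mural cell, leukocyte and erythroid lists. The summed level of the 5 cardiomyocyte miRNAs was 75958 to 134290 CPM at D0 and 21003 to 80702 CPM at D28. The part of this in the EC values was not tested. Without the library that lay farthest from its replicates (D28 replicate 3) the 3p changes were -1.39, -2.56 and -1.34, all called, and no omission of a library ended a 3p call at D28. The D28 call of miR-29c-5p was lost without replicate 4 of that day.

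In HCs the calls depended on single libraries and on the scaling. At D0 miR-29a-3p was 4383, 4454, 20781 and 4280 CPM, and the high value came from replicate 3, the library of 18286 counts in which all 4 5p strands were at 0. With it 3 members were called lower at D1, 2 at D3 and 3 at D7, of 7, against 28.9%, 28.1% and 19.6% of all miRNAs. None was called at D14 or D28, with 1 and 0 at an unadjusted p under 0.05, where 12.8% and 11.3% of all miRNAs were. The 8 lower member-days became 0 with library size alone, 2 with DESeq2 and 1 with the compared days alone. They also became 0 without replicate 1, 2 or 4 of D3 or replicate 3 of D7. Without replicate 3 of D0 3 were lower, and the log2 fold change of miR-29a-3p at D7 moved from -0.69 to -0.09 and was no longer called. Over all 6 days edgeR called 0 of 7 members, with 2 at an unadjusted p under 0.05 and 0 by DESeq2, against 73.5% of all miRNAs. Without that D0 library 2 were called over all days, miR-29a-3p and miR-29c-3p. Marker lists moved in HCs too. At D7 all 5 cardiomyocyte, both endothelial and both mural cell miRNAs were called lower (medians -2.01, -1.88 and -2.26), as were 2 of 3 erythroid miRNAs, while 2 of 5 leukocyte miRNAs were higher. The 3 fibroblast miRNAs, with a median of 0.21, were not called at D7. At D1 and D3 all 3 of them were lower. The summed level of the 5 cardiomyocyte miRNAs was 85777 to 132340 CPM at D0 and 25976 to 45416 CPM at D7, and that of the 5 leukocyte miRNAs 6921 to 10332 CPM and 12558 to 23979 CPM. The part of these shifts in the HC values was not tested.

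Averaged over the 6 days and under TMM, in a fit that did not model the shared mice, 6 of the 7 members were higher in CMs than in each other fraction, where 32.2% of all miRNAs were higher than in ECs, 34.8% than in FBs and 35.8% than in HCs. Against FBs the log2 difference was 1.51 ± 0.15 for miR-29a-3p, 2.75 ± 0.22 for miR-29b-3p and 1.37 ± 0.15 for miR-29c-3p. For the c and a hairpins it was larger on the 5p strand, with 3.81 ± 0.12 for miR-29c-5p and 3.31 ± 0.17 for miR-29a-5p. The value of miR-29b-2-5p (2.85 ± 0.15) was near that of miR-29b-3p, and miR-29b-1-5p (0.37 ± 0.29) was not called. The strands were not tested against each other here. With library size alone miR-29a-3p and miR-29c-3p no longer differed in the same direction from FBs (-0.02 and -0.16, neither called), while miR-29b-3p had a difference of 1.22. Against HCs 2 of the 7 members were higher with library size alone, miR-29a-5p (1.10) and miR-29c-5p (1.44), while miR-29b-1-5p (-1.78, edgeR adjusted p = 4.3e-10) and miR-29c-3p (-0.35, edgeR adjusted p = 0.047) were called lower.

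The second question was whether 29a, 29b and 29c keep a fixed proportion, which can be read within each library with no scaling between libraries. The ratio of miR-29c-3p to miR-29a-3p counts stayed between 0.625 and 0.818 in all 96 libraries, with a median of 0.737. The strands come from different chromosomes and differ by C10U alone, as printed above. The ratio of miR-29b-3p to miR-29a-3p ran from 0.00875 to 0.246, with a median of 0.0258. By these counts the a and c strands moved together over the whole range of levels, and the b strand did not. Part of the a and c counts may be shared, and the effect of this on their ratio was not tested. The ratio of miR-29c-5p to miR-29a-5p ran from 1.13 to 9.55, with a median of 2.64, in the 75 libraries with at least 10 counts of both.

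In CMs miR-29b-3p made up 3.32% ± 1.77 of the 3p counts of the family at D0, 2.09% at D1 and 1.45% at D3, rose to 6.19% ± 4.53 at D7 and 6.45% ± 2.44 at D14, and was 1.64% at D28 (SD, n = 4). In FBs its share was 1.5%, 0.804%, 0.888%, 1.68%, 0.896% and 1.10% on the 6 days. The log2 ratio of miR-29a-3p to miR-29b-3p changed over the days in CMs (limma adjusted p = 0.0033) and in FBs (limma adjusted p = 0.032). The ratio of miR-29b-3p to miR-29c-3p changed in both as well, with limma adjusted p of 0.0033 and 0.023. The ratio of miR-29a-3p to miR-29c-3p was not called in either, with limma adjusted p of 0.58 and 0.82.

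Against D0 alone no day of a 3p ratio was called by limma in CMs or FBs. The mean log2 ratio of miR-29a-3p to miR-29b-3p in CMs was 4.28, 5.01, 5.34, 3.45, 3.13 and 5.25 at D0, D1, D3, D7, D14 and D28, so the widest contrast lay between D3 and D14 and not against D0. Among 5p strands in CMs, miR-29b-2-5p rose relative to miR-29c-5p, which comes from the same cluster, by 1.5 at D7, 1.80 at D14 and 1.5 at D28, and miR-29a-5p relative to miR-29c-5p by 1.27 at D7. No other day of the 6 member pairs was called against D0 in CMs, and an exact permutation test called 1 ratio-day in all. Of all 164 paralog pairs tested in CMs, 112 were called against D0 at D7 and 94 at D28, so such calls were common. The count over all pairs at D14 is not given here. Over all days 2 of 6 pairs changed in CMs and 3 of 9 in FBs, the third being miR-29b-2-5p to miR-29c-5p. Without replicate 3 of D7 the 3 in FBs became 1. Of all pairs of numbered paralogs tested alike, 65.2% changed in CMs and 40.1% in FBs.

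**Figure D3:**
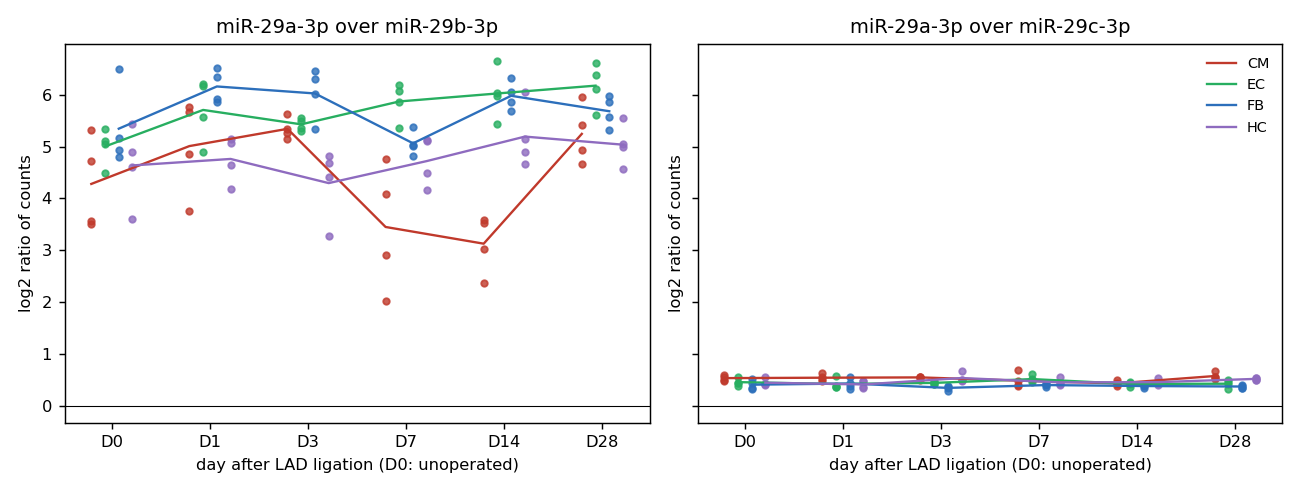
Log2 ratio of counts between the miR-29 3p strands (y axis) by day after AMI (x axis, days evenly spaced) in CMs, ECs, FBs and HCs, where points are libraries and lines join group means. The ratio of miR-29a-3p to miR-29c-3p is flat, and that of miR-29a-3p to miR-29b-3p in CMs falls from a mean of 5.34 at D3 to 3.13 at D14 and returns to 5.25 at D28.

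The third question was the balance of the arms of a hairpin, read as log2 of 5p over 3p counts, which also needs no scaling between libraries. In CMs the 3p strand gained on the 5p strand after AMI. For miR-29a the mean log2 ratio went from -8.42 ± 0.71 at D0 to -10.2 ± 0.1 at D7 and -10.6 ± 0.3 at D14, and for miR-29c from -5.37 ± 0.90 to -8.48 ± 0.22 and -8.50 ± 0.09 (SD, n = 4). Of all 124 arm pairs tested in CMs, 83 were called against D0 at D3 and 89 at D7, so a called shift was common. These calls went both ways, and the 5p strand gained in 51.8% of them at D3 and 48.3% at D7. The counts over all arm pairs at D1, D14 and D28 are not given here. Against D0 the shift for miR-29a was called on all 5 days, with -0.98, -0.75, -1.80, -2.20 and -1.58. For miR-29c it was -1.81, -3.11, -3.13 and -2.27 from D3 on, all called, and -1.08 at D1, not called. For miR-29b-2-5p against miR-29b-3p it was -2.40 at D7 and -2.38 at D14, both called. Since miR-29b-3p is also made from Mir29b-1, this ratio is not that of a single hairpin.

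Over all 6 days the arm ratio changed for 3 of 3 pairs in CMs, where 70.2% of all arm pairs did. In FBs 1 of 4 changed, miR-29b-2 (limma adjusted p = 0.025), against 47.8%, and this call was lost with a pseudocount of 5 and without replicate 3 of D7. In ECs 0 of 3 were called by limma, against 43.8%, but 3 were with a pseudocount of 5. In HCs 0 of 4 were called by limma, against 18.8%. The last share is 34 of 181 pairs, which became 76 without replicate 3 of D0, where 1 member pair was called, and 19 with a pseudocount of 5. FBs had a more uneven balance from the start, with group means of -11.9 to -11.4 for miR-29a and -10.3 to -9.31 for miR-29c over the days. At D14 the mean for miR-29a was -10.6 in CMs and -11.6 in FBs.

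**Figure D4:**
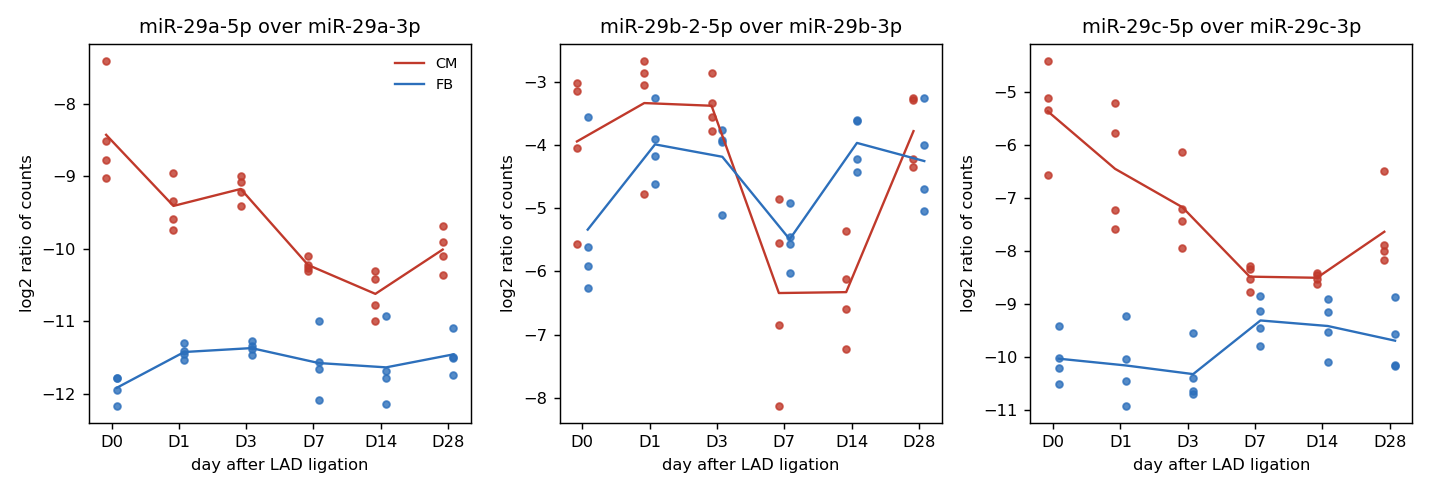
Log2 of 5p over 3p counts (y axis) by day after AMI (x axis, days evenly spaced) for miR-29a, miR-29b-2 and miR-29c in CMs and FBs, where points are libraries and lines join group means. In CMs miR-29c moves from a mean of -5.37 at D0 to -8.50 at D14, and in FBs the mean of miR-29a stays between -11.9 and -11.4.

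The rare 5p strands set the limit of these ratios. Over libraries miR-29a-5p ranged from 0.535 to 17.6 CPM in CMs (7 to 258 counts) and from 0.436 to 4.16 CPM in FBs (1 to 125 counts). The strand miR-29c-5p ranged from 5.17 to 44.2 CPM in CMs and from 2.13 to 8.13 CPM in FBs. The strand miR-29b-1-5p, from the chromosome 6 cluster, did not pass 13 counts in any CM library or 54 in any FB library and was at 0 in 4 CM libraries, which made it the least measured member. Its chromosome 1 counterpart miR-29b-2-5p went from 2.38, 1.35, 0.374 and 1.53 CPM at D0 to 23.2, 21.1, 27 and 32.2 CPM at D14 in CMs, without overlap. These CPM are scaled by library size alone, and on that scale 402 of 484 miRNAs were called higher in CMs at D14. Under TMM its log2 fold change was 1.64. The share of all miRNAs with such a separation was not counted.

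Other miRNAs with a described role in cardiac fibrosis give the setting. Of 18 listed, 16 were tested, and miR-101b-3p and miR-590-3p were at 0 in all libraries. Several of them are also marker genes used above (miR-133a-3p, miR-155-5p and miR-214-3p). In CMs 10 rose and 1 fell at D7, with a median log2 fold change of 1.23, and 10 rose and 2 fell at D14, with a median of 1.45, where 38.8% and 38% of all miRNAs were higher and 30.2% and 29.1% lower. In FBs 7 rose and 6 fell at D7 (median 0.13) and 3 rose and 5 fell at D14 (median 0.32). There 24.5% and 14.4% of all miRNAs were higher and 21.1% and 10.3% lower.

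The pro-fibrotic miR-21a-5p rose in both, by 3.11 ± 0.36 in CMs and 1.44 ± 0.24 in FBs at D7, so it did not share the opposite directions of miR-29. The inflammatory miR-155-5p fell in CMs (-0.68 ± 0.23) and rose in FBs (2.64 ± 0.29). For miR-30c-5p, described like miR-29 as restraining matrix genes, the FB value at D7 was -0.75 ± 0.13, called, and the CM value -0.49 ± 0.27, not called.

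Likeness of pattern was read as Spearman's rho of log2 CPM among the 168 miRNAs whose mean reached 100 CPM, as a description only, since the points share libraries and scaling. Over the 24 group means miR-29a-3p and miR-29c-3p were closest to each other (0.996). Outside the family the nearest to miR-29a-3p were miR-186-5p (0.774), miR-26b-5p (0.665) and miR-22-3p (0.634), and the nearest to miR-29b-3p were miR-22-5p (0.793), miR-186-5p (0.785) and miR-185-5p (0.783). For miR-29c-3p they were miR-186-5p (0.763), miR-26b-5p (0.683) and miR-218-5p (0.637).

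Within the 24 CM libraries the nearest to miR-29a-3p were miR-208a-3p (0.937), miR-19b-3p (0.934) and miR-210-3p (0.927), to miR-29b-3p miR-497a-5p (0.907), miR-335-5p (0.890) and miR-19b-3p (0.860), and to miR-29c-3p miR-19b-3p (0.940), miR-497a-5p (0.928) and miR-19a-3p (0.917). Within the 24 FB libraries they were miR-497a-5p (0.929), miR-361-5p (0.894) and miR-26b-5p (0.874) for miR-29a-3p, miR-26b-5p (0.792), miR-151-5p (0.790) and miR-101a-3p (0.776) for miR-29b-3p, and miR-497a-5p (0.931), miR-16-5p (0.874) and miR-361-5p (0.870) for miR-29c-3p. The name miR-497a-5p was thus near a miR-29 strand in both fractions, although the strands rose in one and fell in the other.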

How the data were processed

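Raw counts per mature miRNA and per hairpin were deposited by the authors in 192 tables. Per the labels and the study's methods, libraries were made with adapter ligation, trimmed with Trim Galore, reads under 18 nt were removed, and the rest were counted with nf-core smrnaseq against miRBase v21 (Bowtie2 and SAMtools are also listed, without versions). Reads without a match (25.59 to 83.02% per library) were left out of library sizes. The study removed a small RNA replicate as an outlier from each of ECs at D28, HCs at D0 and FBs at D0, without naming it. Here all 96 libraries stayed in the main fits. As an alternative, the library farthest from its replicates in each of these groups was left out. Counts were tested with edgeR 4.0.16 (TMM, filterByExpr, quasi-likelihood, Benjamini-Hochberg) in R 4.3.3, with DESeq2 1.42.0 as an alternative. Ratios used limma 3.58.1 with a pseudocount of 0.5 and a mean of at least 10 counts. The scripts were checked on simulated data. All 7 members were named in every comparison, beside the 3 miRNAs nearest to each 3p strand and a list of fibrosis-linked miRNAs. Members, lists and tests were chosen with earlier results of these data known.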

Additional observations from a re-analysis of the deposited data

Results flagged for a closer look

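In 10 of 125 groups of 4 libraries 1 library lay far from the other 3 by Dixon's test, a rule that marks about 1 group in 20 by chance. For miR-29a-3p these were FB D3 replicate 1 (10912 CPM, highest) and HC D0 replicate 3 (20781 CPM, highest). For miR-29b-3p they were CM D1 replicate 1 (22.3 CPM, lowest), EC D7 replicate 3 (134 CPM, highest) and FB D3 replicate 1 (270 CPM, highest). For miR-29c-3p they were CM D28 replicate 1 (2146 CPM, lowest), EC D7 replicate 3 (4053 CPM, highest), FB D3 replicate 1 (8614 CPM, highest) and HC D0 replicate 3 (14219 CPM, highest). For miR-29b-2-5p it was CM D28 replicate 1 (5.09 CPM, lowest).

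The change in CMs and the change in FBs differed by edgeR's test of the difference in 27 of 35 cases. Beside the 3p strands, whose values are in the report (miR-29a-3p 1.88, 2.75, 4.71, 4.50 and 3.21; miR-29b-3p 2.18, 2.63, 6.10, 6.72 and 3.16; miR-29c-3p 1.89, 2.71, 4.79, 4.61 and 3.17 at D1, D3, D7, D14 and D28), they were miR-29a-5p (1.75, 2.88, 2.14 and 1.53 at D3, D7, D14 and D28), miR-29b-2-5p (1.66, 3.04, 2.48 and 1.62 on the same days), miR-29c-5p (1.09, 1.13 and 0.93 at D3, D7 and D14) and miR-29b-1-5p (2.72 at D7).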

How the results depend on the processing

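The rise of the 3p strands in CMs at D7, D14 and D28 and the fall of miR-29a-3p and miR-29c-3p in FBs at D7 and D14 kept direction and call under every alternative and with any 1 library left out. Precision is limited by 4 pools per group, by the rare 5p strands and by EC and HC libraries of low depth. Of 4530 single values under an alternative, 222 changed sign with neither value past the threshold.

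Member-days lower in ECs numbered 5, and 8 with DESeq2, 9 with the compared days alone and 8 without the farthest library. In HCs 8 were lower, and 0 with library size alone, 0 with library size without miR-1a-3p, 4 with the replicate block, 2 with DESeq2, 1 with the compared days alone and 3 without the farthest library. Higher HC member-days were 0, and 3, 1 and 1 with library size alone, library size without miR-1a-3p and the compared days alone. Members changed over all days in HCs were 0, and 3 with no filter on low counts and 2 without the farthest library. Members higher in CMs than in HCs were 6, and 2 with library size alone. Paralog ratio-days changed in CMs were 4, and 1 by an exact permutation test, whose smallest p for 4 against 4 is 0.0286. Arm ratios changed over all days in ECs were 0, and 3 with a pseudocount of 5. In FBs they were 1, and 0 with a pseudocount of 5 and 2 without the farthest library, and in HCs 0, and 1 without the farthest library. The causes were not tested.

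Directions turned with library size alone for miR-29c-5p in CMs at D14 (2.60, and 1.68 without miR-1a-3p in the library size), miR-29c-5p in HCs at D3 (0.036), CMs minus FBs for miR-29b-1-5p (-1.16), miR-29a-3p (-0.017) and miR-29c-3p (-0.16), and CMs minus HCs for miR-29b-1-5p (-1.78, and -0.88 without miR-1a-3p), miR-29a-3p (-0.31) and miR-29c-3p (-0.35). With a pseudocount of 5 the EC arm ratio at D28 turned to 1.63 for miR-29a and 1.07 for miR-29c.

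With 1 library left out, members changed over all days ranged from 3 to 5 in CMs, 4 to 5 in ECs, 6 to 7 in FBs and 0 to 3 in HCs. Member-days ranged from 17 to 21 higher in CMs (0 to 0 lower), 4 to 8 lower in ECs (0 to 0 higher), 6 to 16 lower in FBs (6 without D0 replicate 3, 16 without D0 replicate 2, and 0 to 0 higher), and 0 to 8 lower and 0 to 2 higher in HCs. CM changes above the FB change ranged from 22 to 27, members higher in CMs from 6 to 6 against each fraction, paralog ratios from 2 to 4 (3 to 9 ratio-days) in CMs and 1 to 3 (0 to 6) in FBs, and arm ratios from 3 to 3 in CMs, 0 to 1 in ECs, 0 to 2 in FBs and 0 to 1 in HCs.

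The study states that the pools of the cell types at one day came from the same mice, but not that equal numbers mark equal pools. Deviations of same-numbered libraries from their group means correlated between CMs and HCs of one day by 0.062 on average (over 0.1 in 10 of 24 pairs, and -0.021 for other numbers), between CMs and FBs by 0.016 (5 of 24) and within CMs across days by 0.016 (-0.473 to 0.517 over 60 pairs), so the numbers were not taken as pairs. With the replicate block CMs had 5 members and 20 higher member-days, ECs 4 and 6 lower, FBs 7 and 10 lower, HCs 0 and 4 lower, and 25 CM changes lay above those in FBs (20 with DESeq2). Paralog ratios then changed for 2 pairs and 5 ratio-days in CMs and for 3 and 0 in FBs, and arm ratios for 3, 0, 1 and 0 pairs in CMs, ECs, FBs and HCs.

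Counts over all miRNAs that moved by more than 1.5 times were CM D1 (121, and 298 with library size alone, 265 without miR-1a-3p in it and 19 with the compared days alone), HC D28 (146, and 238 with library size alone and 241 with the compared days alone) and, with the compared days alone, EC D3 (74, then 163), EC D7 (95, then 151), EC D28 (198, then 124), FB D1 (45, then 29) and FB D28 (38, then 23). With 1 library left out CM D1 ranged from 46 (without D1 replicate 3) to 192 (without D0 replicate 1), EC D3 fell to 46 (without D0 replicate 2), FB D1 to 26 and FB D28 to 22 (both without D0 replicate 1). EC D1 went from 0 to 5 with DESeq2 or the compared days alone and to 3 with no filter. The CM minus FB difference went with library size alone from 76 to 226 at D1, 228 to 372 at D3 and 229 to 369 at D28, and at D1 to 160 without miR-1a-3p in it and to 50 with CM and FB libraries alone. In FBs the higher share of calls at D7 was 53.7%, and 70.4% with library size alone.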
